A study of Ocimum americanum with 4 samples.

Results

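The unigenes of the respiratory chain and of the proton pumps were examined in leaves of *Ocimum americanum* var. *pilosum*, a basil, with and without chilling. The members are the unigenes whose KEGG annotation places them in the oxidative phosphorylation pathway (ko00190) and not in the photosynthesis pathway (ko00195). This rule uses the annotation and no expression value, and it gave 168 of 42816 unigenes. A further 9 unigenes carried both pathways and were left out. Control plants grew at 21 °C according to the sample labels, and the article gives a slightly higher temperature. Chilled plants of the same age, 30 days, spent 12 h at 4 °C, and no mutation or transgene is given for either group. Each group has 2 libraries, described as biological replicates, and how many plants were pooled in each is not given in the sources used here.

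Plant mitochondria pass electrons from NADH through complex I and from succinate through complex II to ubiquinone, then through complex III and cytochrome c to complex IV, which reduces oxygen. The proton gradient made on the way drives the F-type ATP synthase. Plants can also bypass these steps with an alternative oxidase and with type II NAD(P)H dehydrogenases, which pump no protons. The KEGG pathway also lists pumps of other membranes: the V-type ATPase and the membrane pyrophosphatase of the vacuole, the P-type ATPase of the plasma membrane, and soluble pyrophosphatases, which split pyrophosphate without pumping. The largest class was the V-type ATPase with 44 members, followed by complex I with 36. The F-type ATP synthase and the pyrophosphatases had 17 members each, complex III 15, the P-type ATPase 13 and complex IV 10. The NAD(P)H dehydrogenase-like complex of the chloroplast (NDH) had 7, complex II 5 and the assembly of complex IV 4.

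The deposited values are FPKM, fragments per kilobase of unigene and per mapped fragments of the library, so that levels of different unigenes are per length. The change of a unigene was tested with limma on log2(FPKM + 1) over the 33036 unigenes whose FPKM averaged 1 or more across the libraries. A unigene was called higher or lower after chilling when its adjusted p from limma was at most 0.01 and its mean FPKM differed at least 2-fold. Fold values below are ratios of mean FPKM, and each log2 change is that of chilling over control, taken from log2(FPKM + 1). The files analysed hold FPKM alone, and the read depth of a value is therefore unknown. The 4 libraries had similar numbers of unigenes at an FPKM of at least 1, between 31370 and 32815, but they were not scaled to a common total. Their summed FPKM was 875599 and 874864 in the control and 773457 and 772255 after chilling. Markers of leaf mesophyll, such as the small subunit of Rubisco and chlorophyll a-b binding proteins, were present in every library. Their summed FPKM was 61451 to 61663 in the control and 25633 to 25726 after chilling, none of the 44 marker unigenes was at 0 in all libraries, and 23 of 43 tested were called lower. Markers of dividing cells summed to 2796 to 2816 in the control and 1805 to 1820 after chilling, with 6 of 16 tested called lower, and those of epidermis to 1758 to 1793 and 1821 to 1835, with 9 of 67 higher and 6 lower. Xylem markers summed to 206 to 212 and 219 to 223, with 1 of 21 tested called higher and 2 lower. Phloem markers summed to 66.0 to 70.2 and 90.9 to 91.1, with 2 of 8 higher and 2 lower. Guard cell markers summed to 34.5 to 34.7 and 38.0 to 38.2, with none of 5 higher and 2 lower. None of these unigenes was at 0 in all libraries. The part of these changes in the results below was not tested, and in bulk leaf RNA fewer cells of a type and less RNA per cell cannot be told apart.

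Of the 168 members, 158 passed the filter on low values. Among them 9 were called higher and 13 lower after chilling. Together these are 13.9% of the tested members, against 25.6% of all tested unigenes. The 9 higher members are 5.70% of those tested and the background is 11.9%, and the 13 lower members are 8.23% against 13.8%. The median log2 change was -0.08 over the members and -0.00 over all tested unigenes. When each library was scaled to the same total (TPM), the median of all unigenes moved to 0.15 and that of the members to 0.08. The members' calls then became 11 higher and 6 lower, against backgrounds of 15.3% and 11.1%. The filter kept 5 members whose control mean was below an FPKM of 1, of which 3 were called higher, and 11 whose chilling mean was below it, of which 4 were called lower.

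**Figure D1:**
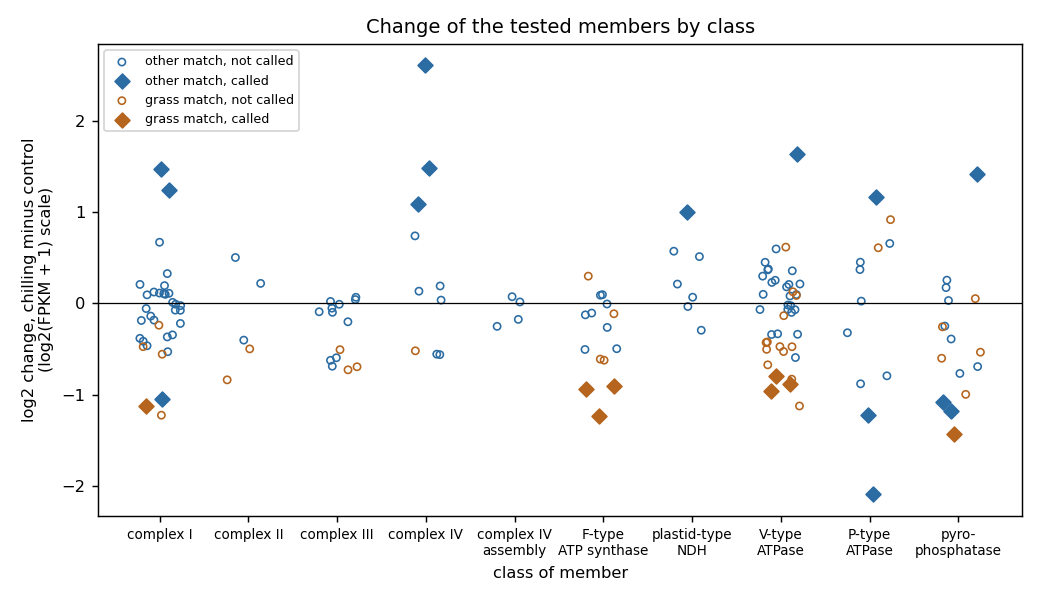
Log2 change (chilling over control, from log2(FPKM + 1)) of each of the 158 tested members, by class along the horizontal axis. Filled diamonds are called members and open circles are members not called. Orange marks a best match in a grass and blue any other match. All 8 called members with a grass match lie below 0, and the largest increase is in complex IV.

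The members differ in what their sequences matched. The best match in the nr protein database was a grass for 49 members, 47 of them in *Oryza*. These unigenes stand apart in level, with a median FPKM of 2.02 against 46.5 for the other 119 members. None of the 42 tested was called higher by limma and 8 were called lower, while 4 were higher and 21 lower at an unadjusted p under 0.05. Of all tested unigenes 34.2% were higher and 33.4% lower at that unadjusted p, and the other counts of this kind below are read against these shares. Over all unigenes with a grass match, 74 of 2025 tested were called higher, which is 3.65%, and 310 lower, which is 15.3%. At an unadjusted p under 0.05 from limma, 166 of these 2025 were higher and 896 lower. The grass-matched members are read against these counts, since the lower direction prevails among grass matches in general. The summed FPKM of grass-matched members below a mean of 10 was 126 to 127 in the control and 64.7 to 72.1 after chilling. The 4 at a mean of 10 or more went the other way, with sums of 257 and 260 against 311 and 295, and all 49 together were at 0.964 of the control. The origin of these transcripts was not tested. Because basil is no grass, the called members with a grass match are given here and kept apart from the rest. They were subunits O, gamma and d of the ATP synthase (Ob_37960, Ob_00441, Ob_38820), subunits E, B and d of the V-type ATPase (Ob_42815, Ob_03359, Ob_39587), the flavoprotein 1 of complex I (Ob_02143) and a membrane pyrophosphatase (Ob_08189). Of these, Ob_02143 and Ob_08189 had a chilling mean below 1 and passed the filter only through the control libraries. Their calls are therefore a description. Subunit d of the ATP synthase (Ob_38820) had an FPKM of 5.19 and 4.34 in the control and 1.37 and 1.54 after chilling (adjusted p = 0.00085, limma). All 8 calls were lost when any 1 of the 4 libraries was left out.

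Without the grass matches, 116 members were tested, and 9 were called higher and 5 lower. This is 12.1%, where the background of unigenes without a grass match is 26.1%. For 77 of the 116 the 95% confidence interval of the change lay within 1.5-fold in either direction, which is 66.4%. Over all tested unigenes without a grass match this share was 27.5%. Members were also measured at higher levels than most unigenes. Among unigenes without a grass match and averaging an FPKM of 10 or more, the share was 46.7%, and among the 90 such members it was 78.9%. This cut does not match levels, since the median FPKM was 25.8 for these unigenes and 63.8 for these members. The part of level in the difference was not tested. Between replicates, the median gap was 0.03 on the log2(FPKM + 1) scale for the 60 members averaging 50 or more FPKM and 0.25 for the 51 with a mean of 1 to 5.

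**Figure D2:**
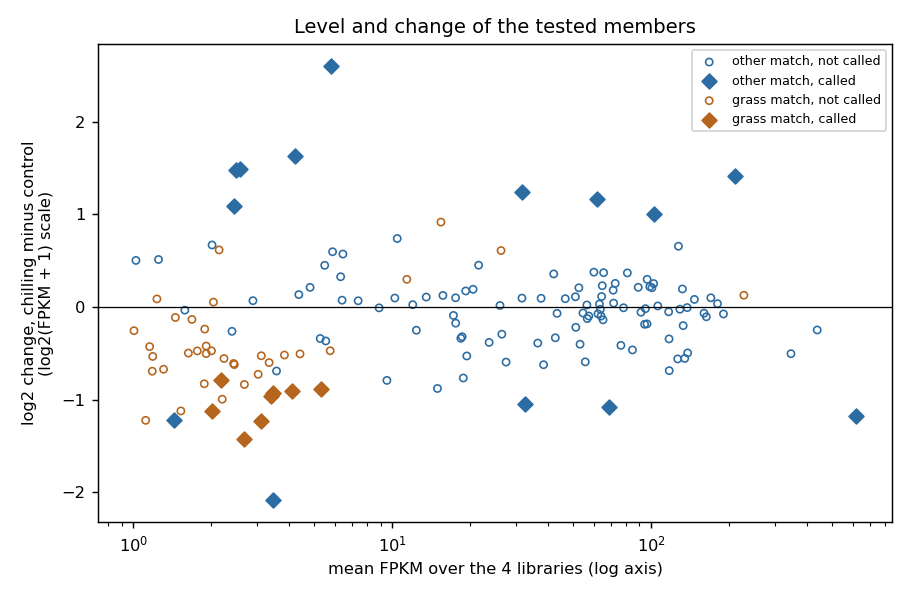
Mean FPKM over the 4 libraries (log axis) against the log2 change (chilling over control, from log2(FPKM + 1)) of the 158 tested members, with the same symbols as in the plot by class. Members above a mean FPKM of 10 gather around 0, and most called members with a grass match sit between a mean of 2 and 5.

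Few nuclear-encoded subunits of the respiratory complexes were called, and most differences were small. Complexes I to IV and the F-type ATP synthase held 53 tested members that matched neither a grass nor a protein of the mitochondrial genome. Of these 1 was called higher and 1 lower, which is 1.89% each, and 42 had an interval within 1.5-fold, which is 79.2%. Over all tested unigenes without a grass match, 12.4% were called higher, 13.7% lower, and 27.5% had such an interval. Levels differed, with a median FPKM of 64.3 for these members and 3.66 for all unigenes without a grass match. At an unadjusted p under 0.05 from limma, 7 of the 53 members were higher and 24 lower, where the shares over all unigenes are 34.2% and 33.4%. Their summed FPKM was 4351 and 4378 in the control and 3891 and 3904 after chilling, a ratio of 0.893. On the TPM scale the ratio was 1.01, so the direction of the sum depended on the scaling.

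In complex I, which oxidises NADH, the member at the highest level was the accessory subunit NDUFB10 (Ob_12244). Its FPKM was 192 and 198 in the control and 186 and 185 after chilling, a ratio of 0.949 (adjusted p = 0.033, limma), and it was not called. The 2 called nuclear members were both mitochondrial acyl carrier proteins, small proteins that carry growing fatty acids and are counted by KEGG as a subunit of complex I (NDUFAB1). The unigene matching acyl carrier protein 3 (Ob_11449) had an FPKM of 18.5 and 18.4 in the control and 44.4 and 45.5 after chilling. It was 2.44-fold higher (log2 change 1.24, 95% interval 1.12 to 1.36, adjusted p = 2.5e-06, limma). A unigene matching acyl carrier protein 2 (Ob_18658) went the other way, from 44.5 and 43.7 to 20.9 and 20.8. It was 2.12-fold lower (log2 change -1.05, 95% interval -1.16 to -0.93, adjusted p = 4.7e-06, limma). On the TPM scale its ratio was 1.87, below the 2-fold limit. In both unigenes the replicates lay close together and the groups did not overlap. The 4 unigenes of this KEGG entry without a grass match summed to a mean FPKM of 180 without and 181 with chilling. The family members are similar in sequence and may share reads, and how these were divided cannot be seen in the files. One member that KEGG places in complex I (Ob_36446) matched a ubiquitin hydrolase in Swiss-Prot, and it was not called.

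Complex II, succinate dehydrogenase, had no called member among 5 tested by limma, and 1 was higher and 3 were lower at an unadjusted p under 0.05. Its flavoprotein subunit SDH1-1 (Ob_36387) was the highest, with an FPKM of 88.8 and 93.4 in the control and 106 in both libraries after chilling, a ratio of 1.17. The largest change was in a grass-matched flavoprotein (Ob_02217), from 4.71 and 2.78 to 1.92 and 1.32 (adjusted p = 0.024, limma). Complex III, which passes electrons from ubiquinol to cytochrome c, also had none called by limma among 14 tested, with 7 lower and none higher at an unadjusted p under 0.05. Its highest member was subunit 7 (Ob_18060), with 141 and 143 in the control and 121 and 126 after chilling. The largest change was again in a grass match, a cytochrome c1 (Ob_02712), from 3.74 and 4.30 to 1.74 and 2.35 (adjusted p = 0.011, limma).

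In complex IV, cytochrome c oxidase, the nuclear subunits were not called. The highest was COX6A (Ob_18395), with an FPKM of 178 and 177 in the control and 177 and 188 after chilling. The summed level of COX5B, another nuclear subunit, was 0.689 of the control, and that of COX6B was 0.729. The 4 members that act in the assembly of the complex and in making its heme a were not called by limma and had intervals within 1.5-fold, and 2 of them were lower at an unadjusted p under 0.05. COX11 (Ob_32288), which delivers copper, had 26.3 and 25.5 in the control and 26.7 and 25.7 after chilling. COX15 (Ob_30414), which acts in the synthesis of heme a, had the largest change of the class, from 13.8 and 13.3 to 12.2 and 10.3.

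The F-type ATP synthase had no member called by limma once grass matches were set apart. Of its 8 tested members 7 had intervals within 1.5-fold, and 4 were lower at an unadjusted p under 0.05. Its catalytic beta subunit (Ob_31484) was the highest respiratory member. Its FPKM was 406 in both control libraries and 283 and 289 after chilling, a ratio of 0.705. The difference was larger than the spread of replicates (log2 change -0.50, 95% interval -0.55 to -0.46, adjusted p = 1.4e-06, limma) but below the 2-fold limit of a call.

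Plants keep a few respiratory genes in the mitochondrial genome, among them the catalytic subunits of complex IV. Here 9 members matched such proteins, and 7 of them could be tested. Of these, 4 were called higher and none lower by limma. At an unadjusted p under 0.05 none was lower either. Of the 4 called, Ob_17224, Ob_35446 and Ob_06556 had a control mean below 1 and passed the filter only through the chilling libraries, where they are high, so the count of calls is a description. With an FPKM of 1 required in each library these could not be tested, and Ob_01314 stayed called. The levels were low, and the summed FPKM of the 9 was 20.3 and 18.7 in the control and 48.4 and 47.8 after chilling, a ratio of 2.47, or 2.79 on the TPM scale.

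A COX1 unigene (Ob_17224), which matches the subunit that holds the oxygen-binding centre of complex IV, had an FPKM of 1.00 and 0.84 in the control and 11.2 and 10.2 after chilling. It was 11.6-fold higher (log2 change 2.61, 95% interval 2.26 to 2.96, adjusted p = 1.3e-05, limma), the largest increase of all members. Its ratio rests on a control mean below 1. A second COX1 unigene (Ob_01314) had 1.29 and 1.12 against 3.64 and 3.73 and was 3.06-fold higher (adjusted p = 0.0015, limma). The COX2 unigene (Ob_35446), which matches the subunit that receives electrons from cytochrome c, had 1.29 and 0.53 against 4.28 and 4.21 (adjusted p = 0.0016, limma). The NAD9 unigene (Ob_06556), a subunit of complex I, had 1.08 and 0.63 against 4.38 and 3.88 (adjusted p = 0.00081, limma). In each of these 4 unigenes both chilling libraries lay above both control libraries. The fits with a library left out kept the filter over all 4 libraries, so they do not test how a unigene passed it. The call for Ob_17224 was kept when each library was left out in turn, and the calls for Ob_01314, Ob_35446 and Ob_06556 were lost in all 4 cases.

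The other members of this set were not called. COX3 (Ob_19899) had an FPKM of 7.52 and 7.62 in the control and 13.2 and 13.4 after chilling, 1.76-fold apart (adjusted p = 0.00037, limma). NAD7, a complex I subunit, was split over a pair of unigenes. Ob_08998 had 5.19 and 5.79 against 7.43 and 6.85, and Ob_08997 had 1.34 and 1.31 against 2.72 and 2.68 (adjusted p = 0.014, limma). The ATP synthase subunits alpha (Ob_36078) and a (Ob_17892) were below the filter. Ob_36078 had 0.90 and 0.59 in the control and 1.22 and 1.20 after chilling, and for Ob_17892, with 0.64 and 0.31 against 0.32 and 1.60, the groups overlapped. Several unigenes that match a single protein may be fragments of 1 transcript.

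The KEGG rule left out other unigenes of the same kind. By their Swiss-Prot names, 13 further unigenes matched respiratory proteins of the mitochondrial genome, a list chosen after the values had been seen. Of the 8 tested, 5 were called higher and none lower by limma, with 6 higher and none lower at an unadjusted p under 0.05, and their median log2 change was 1.08. Apart from ATP9, the called unigenes had a control mean below 1 and passed the filter only through chilling. They matched ND4, ND6 in a pair of unigenes, ND2 and ATP9. ND4 (Ob_21849) had an FPKM of 0.70 and 0.46 in the control and 3.80 and 4.68 after chilling. The highest of the list, another ND2 unigene (Ob_15588), had 11.5 and 11.1 against 10.9 and 8.91, so that not every unigene of this kind was higher.

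**Figure D3:**
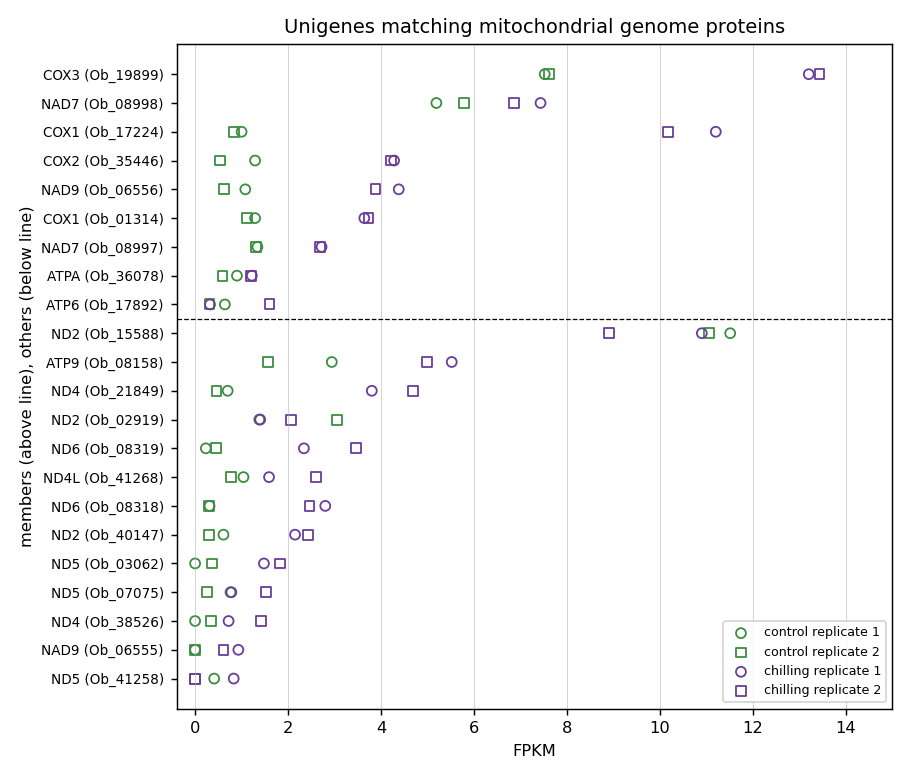
FPKM in each of the 4 libraries of the 9 members (above the dashed line) and the 13 other unigenes (below it) that match respiratory proteins of the mitochondrial genome. Green marks control and purple chilling, circles replicate 1 and squares replicate 2. The COX1 unigene Ob_17224 moves from about 1 to above 10, while the ND2 unigene Ob_15588 does not rise.

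The chloroplast NDH complex, which returns electrons from ferredoxin to plastoquinone in the thylakoid, entered the list through its KEGG entries. Of its 7 members, 6 match subunits of the plastid genome and 1 a nuclear subunit, ndhN. That unigene (Ob_16753) was the highest of the class and its only called member. Its FPKM was 66.9 and 68.7 in the control and 139 and 134 after chilling, 2.01-fold higher (log2 change 1.00, 95% interval 0.92 to 1.08, adjusted p = 8.8e-07, limma). The ratio sits at the limit of a call. It was 1.99 without control replicate 1 and 1.98 without chilling replicate 1, and the call was lost there. The 6 plastid-genome matches summed to 42.9 and 44.9 in the control and 42.6 and 43.5 after chilling, and none of them was called by limma, with 1 higher and 1 lower at an unadjusted p under 0.05. For a pair of these the KEGG and Swiss-Prot names differ: Ob_25713 is ndhJ in KEGG and ndhK in Swiss-Prot, and Ob_09563 is ndhG and ndhH.

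The V-type ATPase acidifies the vacuole with a peripheral part that splits ATP and a membrane part that moves protons. Without grass matches its 25 members covered 12 subunits, and the summed level of every subunit after chilling was between 0.903 and 1.24 of the control. In 20 of the 25 the interval lay within 1.5-fold. The class summed to 1408 and 1404 in the control and 1502 and 1488 after chilling, a ratio of 1.06, or 1.20 on the TPM scale. The highest unigene of the class was a proteolipid subunit c with a wheat match (Ob_23888), with an FPKM of 215 and 220 in the control and 244 and 232 after chilling. The single call was in a minor unigene of the catalytic subunit A, VHA-A (Ob_16921), with 1.20 and 1.85 against 8.33 and 5.47 (log2 change 1.63, 95% interval 1.08 to 2.19, adjusted p = 0.00099, limma). Its groups did not overlap, but the call was lost when any 1 library was left out. The 3 unigenes of subunit A together had a mean of 232 without and 239 with chilling.

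**Figure D4:**
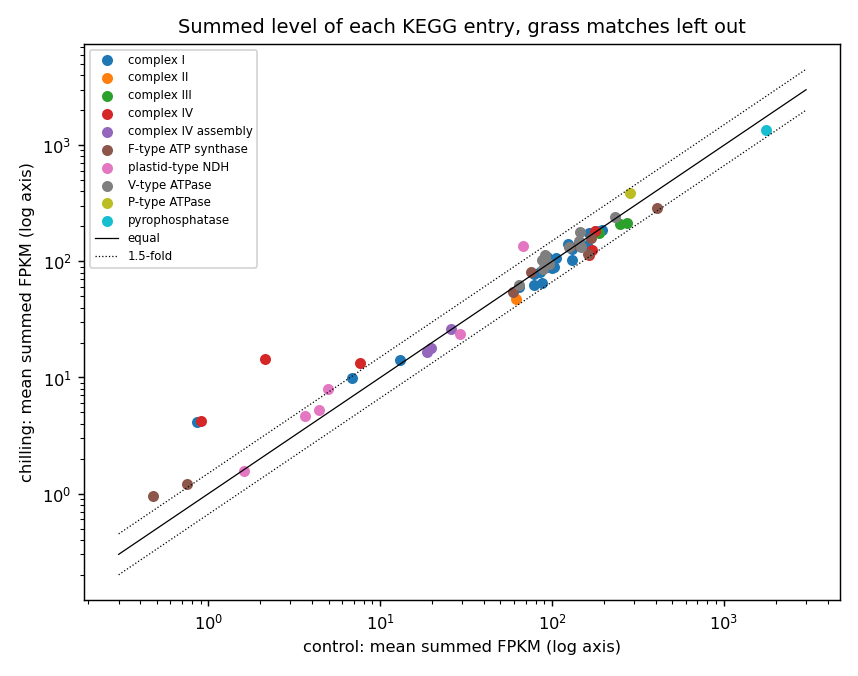
Mean summed FPKM of each KEGG entry in the control and after chilling, on log axes, coloured by class, with members matching a grass left out. The solid line marks equal levels and the dotted lines a 1.5-fold difference. Of 51 entries with a control sum of at least 10, 50 lie between the dotted lines. The other, ndhN, lies above them, at 67.8 in the control and 137 after chilling. The remaining entries above them are below 10 in the control.

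The P-type ATPases export protons from the cell and energise the plasma membrane. This class held members that rose and members that fell. One of 3 unigenes matching PMA4 (Ob_23415) had an FPKM of 36.0 and 39.1 in the control and 85.6 and 85.0 after chilling, 2.27-fold higher (log2 change 1.16, 95% interval 1.05 to 1.28, adjusted p = 2.9e-06, limma). The other PMA4 matches were not called. The more abundant Ob_36923 had 57.5 and 56.4 against 74.2 and 73.7, 1.30-fold apart, and Ob_20055 had 17.9 and 18.2 against 25.7 and 24.4, 1.39-fold apart. The highest member of the class, a PMA1 match (Ob_36231), had 100 and 97.0 against 156 in both chilling libraries. That is 1.58-fold apart (95% interval of the log2 change 0.59 to 0.72, adjusted p = 3.2e-06, limma) and below the limit of a call. The other PMA1 matches had lower means after chilling and were not called, with 19.8 and 19.5 against 9.97 and 10.5 in Ob_28746 and 20.4 and 21.1 against 16.6 and 16.3 in Ob_24264.

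In the lower direction, AHA7 (Ob_16655) had 5.99 and 6.40 in the control and 1.17 and 0.32 after chilling. It was 8.32-fold lower (log2 change -2.09, 95% interval -2.71 to -1.47, adjusted p = 0.00053, limma), the largest decrease among the tested members. AHA11 (Ob_05413) had 1.79 and 3.07 against 0.45 in both chilling libraries, 5.40-fold lower (adjusted p = 0.0050, limma). Both had a chilling mean below 1 and passed the filter only through the control libraries, so they could not be tested where each library had to reach 1. A more abundant AHA11 match (Ob_28745) had 12.4 and 12.3 against 6.57 and 6.85, 1.84-fold apart, and was not called. The call for AHA7 was lost without either control replicate and without chilling replicate 2, with adjusted p from limma up to 0.046, and that for AHA11 was kept only without control replicate 1. The 11 unigenes of the class without a grass match summed to 283 and 286 in the control and 390 and 387 after chilling, a ratio of 1.36. PMA4, PMA1 and AHA are names of the best match in other species, and these unigenes may share reads.

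**Figure D5:**
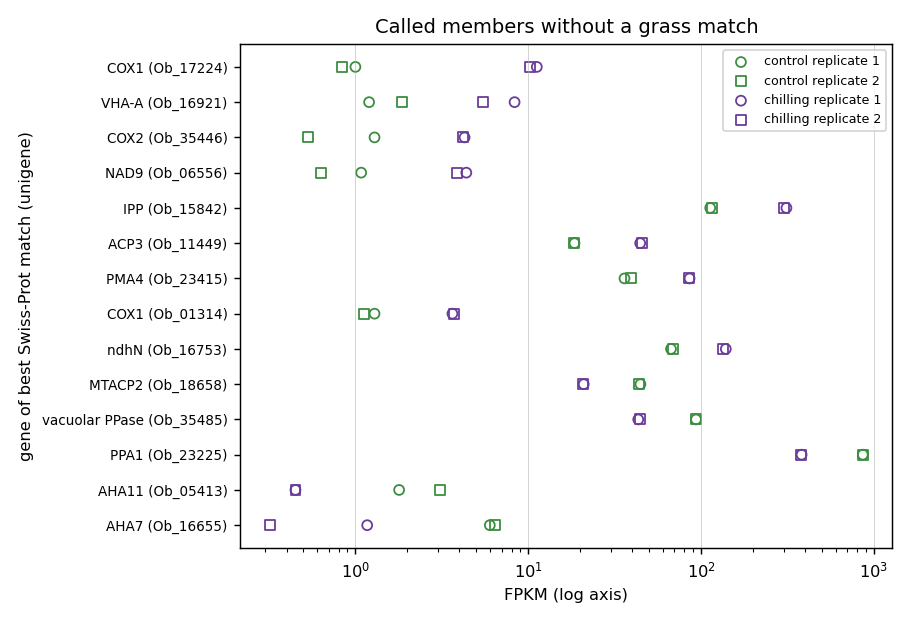
FPKM (log axis) in each of the 4 libraries of the 14 called members without a grass match, ordered by log2 change. Green marks control and purple chilling, circles replicate 1 and squares replicate 2. In none of them do the groups overlap, and the replicates lie farthest apart in the members below an FPKM of 10.

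Among the pyrophosphatases a chloroplast form fell and another soluble form rose. Soluble pyrophosphatases remove the pyrophosphate released by biosynthesis, and the chloroplast and the cytosol have their own forms. The unigene matching the chloroplast enzyme PPA1 (Ob_23225) was the highest of all members. Its FPKM was 861 and 859 in the control and 381 and 376 after chilling, 2.27-fold lower (log2 change -1.18, 95% interval -1.21 to -1.15, adjusted p = 1.3e-08, limma). A soluble pyrophosphatase without a plastid name, IPP (Ob_15842), had 113 and 115 against 311 and 300. It was 2.68-fold higher (log2 change 1.41, 95% interval 1.35 to 1.48, adjusted p = 8.6e-08, limma). Both calls were kept under every alternative tried, but on the TPM scale the ratio of Ob_23225 was 2.00, at the limit of a call. The 4 soluble members without a grass match summed to 1101 and 1103 in the control and 836 and 818 after chilling.

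The membrane pyrophosphatases use pyrophosphate in place of ATP to pump protons into the vacuole. One unigene (Ob_35485) had an FPKM of 93.4 and 93.2 in the control and 43.3 and 44.3 after chilling, 2.13-fold lower (log2 change -1.07, 95% interval -1.16 to -0.99, adjusted p = 8.7e-07, limma). On the TPM scale the ratio was 1.88 and it was not called. Of the 6 unigenes of this kind without a grass match it was the only one called, and 3 had intervals within 1.5-fold. Their sum was 651 and 661 in the control and 513 and 510 after chilling, a ratio of 0.780, or 0.883 on the TPM scale.

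Genes that act beside the chain were read from lists of Swiss-Prot names, with members left out. Alternative oxidases had 3 tested unigenes, of which 1 was called higher and 1 lower. AOX3 (Ob_14622) had an FPKM of 0.38 and 0.25 in the control and 16.2 and 14.3 after chilling, 48.3-fold higher (log2 change 3.62, 95% interval 3.26 to 3.99, adjusted p = 3.4e-06, limma). The control mean of AOX3 was below 1, and it passed the filter only through the chilling libraries. Its call is therefore a description, and its ratio rests on a very low control value. AOX1 (Ob_29549) had 29.1 and 26.2 against 7.36 and 7.11, 3.82-fold lower (adjusted p = 4.8e-06, limma). The 3 together summed to 39.2 and 35.9 in the control and 33.7 and 33.2 after chilling.

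Among 11 tested type II NAD(P)H dehydrogenases, 1 was called higher and 3 lower. NDB1 (Ob_23572) had 2.99 and 3.38 in the control and 6.69 and 6.59 after chilling, NDB3 (Ob_07950) had 3.30 and 3.03 against 0.45 and 0.44, and NDB4 (Ob_07949) had 2.57 and 1.81 against 0.37 in both. NDB3 and NDB4 had a chilling mean below 1 and passed the filter only through the control libraries. The highest of the list, NDA1 (Ob_25673), had 33.4 and 32.6 against 35.1 and 34.8. Of 12 donors of electrons to ubiquinone, 1 was called higher and 1 lower. Proline dehydrogenase 1 (Ob_29632), which starts the breakdown of proline, had 0.96 and 1.16 against 13.7 and 11.9 (adjusted p = 9.4e-06, limma). Dihydroorotate dehydrogenase, an enzyme of pyrimidine synthesis, had a lower unigene (Ob_16162), with 4.86 and 5.21 against 2.25 and 2.66. Its main unigene (Ob_33355) had 47.0 and 46.7 against 52.1 and 51.5. The only cytochrome c unigene (Ob_37388) has a grass match and was not called, with 5.46 and 5.81 against 2.77 and 3.19.

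Carriers of the inner membrane were taken by the names ADP,ATP carrier, phosphate carrier and uncoupling protein. They had 29 tested unigenes, 4 called higher and 3 lower. A pair of unigenes matching uncoupling protein 5 by name rose, and what these proteins carry was not tested. Ob_24524 had an FPKM of 4.11 and 5.35 in the control and 45.4 and 48.3 after chilling, 9.90-fold higher (adjusted p = 1.8e-06, limma). Ob_12378 was at 0 in each of the control libraries and had 11.5 and 10.6 after chilling. It passed the filter only through the chilling libraries. An ADP,ATP carrier (Ob_21890) fell from 63.0 and 66.8 to 23.5 and 25.5, and ER-ANT1 (Ob_22273), a carrier of the endoplasmic reticulum that the name pattern also took in, had 10.6 and 10.5 against 3.72 and 3.41. The highest carrier, ANT1 (Ob_31037), had 390 and 398 against 273 and 259 and was not called. Of 37 tested subunits of the mitochondrial import machinery none was called higher and 6 were lower by limma, and none was higher and 30 were lower at an unadjusted p under 0.05, against 34.2% and 33.4% of all unigenes, with a median log2 change of -0.53. TIM23-1 (Ob_22403), a channel subunit, had 44.4 and 45.2 against 15.6 and 17.6, and TIM9 (Ob_13874) had 13.8 and 14.5 against 3.68 and 5.56. The highest, TOM5 (Ob_13287), had 111 and 108 against 94.8 and 98.5 and was not called. The summed level of the import list was 1396 and 1401 in the control and 1003 and 992 after chilling. The ratio was 0.713, or 0.808 on the TPM scale.

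Of 26 respiratory assembly factors 4 were called higher and 2 lower. Unigenes named for BCS1, in yeast a chaperone of the Rieske subunit of complex III, were in both groups. Ob_25800 rose from 35.8 and 32.9 to 235 and 234 (6.83-fold, adjusted p = 4.3e-08, limma), Ob_28867 had 3.36 and 2.59 against 12.4 and 11.8, and Ob_32120 had 10.8 and 12.2 against 3.30 and 4.55. Prohibitin-6 (Ob_09694), a scaffold protein of the inner membrane, had 4.65 and 4.15 against 1.72 and 2.54, and prohibitin-1 (Ob_23374) had 182 and 190 against 102 and 106 without a call. Beside the vacuolar pumps, 1 of 20 tested proton exchangers was called higher and 1 lower. CAX2 (Ob_16250) had 1.83 and 2.34 against 4.84 and 4.68, and NHX2 (Ob_32464) had 39.6 and 39.5 against 11.4 and 11.2, while the highest, CAX3 (Ob_29074), had 105 and 104 against 70.3 and 71.3. Of 17 tested 14-3-3 proteins, which bind and activate the plasma membrane pump, 1 was called higher and none lower by limma, with 11 higher and 4 lower at an unadjusted p under 0.05, against the same 34.2% and 33.4%. It was TFT3 (Ob_26634), with 9.15 and 7.86 against 23.2 and 19.8, and the highest (Ob_25740) had 674 and 672 against 867 and 872. Calls in these lists are read against 11.9% higher and 13.8% lower.

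The rule also left out nuclear-encoded unigenes of these complexes. By Swiss-Prot name, 103 further unigenes belong to the same complexes, a list made after the values had been seen. Of 90 tested, 2 were called higher and 15 lower, which is 2.22% and 16.7%, against 11.9% and 13.8% of all tested unigenes. Without those matching a grass, 2 of 62 tested were higher and 4 lower. The shares over all unigenes without a grass match are 12.4% and 13.7%.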

How the data were processed

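RNA-seq of leaves gave 4 libraries, 2 per treatment, grouped by their labels. The authors assembled the reads de novo, kept 1 unigene per gene and deposited FPKM from RSEM. The annotation table gives the authors' best nr, Swiss-Prot and KEGG matches. The authors' lists of changed genes, made with edgeR, hold fold changes, p-values and 8 columns of FPKM per sample and were not used. The article gives clean reads per library, which were not used here, and the reads behind a single FPKM are unknown. The p-values measure the spread between these libraries. According to the article the RNA-seq replicates shared a harvest time, so spread between harvests is not covered.

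log2(FPKM + 1) was fitted with limma 3.58.1 in R 4.3.3, with an intensity trend and Benjamini-Hochberg adjustment over 33036 unigenes. The fit has 2 residual and 4.41 prior degrees of freedom. Alternatives on another scale or without a library kept the same unigenes. On simulated data over 33036 unigenes, 0 of 50 were called at a fold of 1.5 and 11 of 50 at 2. At a fold of 3 it was 35 of 50, at 4 it was 43 of 50, and 1 of 32836 unchanged was called. A call also needs a 2-fold ratio of means, which by itself limits the calls at true folds of 1.5 and 2. Few unigenes were changed in the simulation, while in the data 15825 reached an adjusted p of at most 0.01 with limma. The adjustment was therefore stricter in the simulation, and its rates do not describe this comparison.

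Members and lists were chosen with earlier results of these data known. Named are, per class, the 4 most changed called members in each direction and the highest member, the largest change where none was called, all matches to the mitochondrial genome, and in other lists the 2 most changed in each direction and the highest. COX5B and COX6B, the further PMA4, PMA1 and AHA11 matches, and unigenes of the lists made after the values had been seen, were chosen after their values were seen. Sequences of the unigenes were not used here.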

Additional observations from a re-analysis of the deposited data

How the results depend on the processing

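The counts of called members were the results most open to the processing. The 9 higher members became 5 with a mean FPKM of at least 5, and 4 to 5 with 1 library left out. The 13 lower members became 6 without a filter, 4 with a mean FPKM of at least 5, 6 on the TPM scale, 6 without the intensity trend, 8 with 2-fold on the log2(FPKM + 1) scale, 5 without grass and non-plant matches, and 3 to 4 with 1 library left out. Each fit without a library has fewer residual degrees of freedom, and its single library is assumed to vary like the others. Of the 22 called members 7 kept the call with each library left out in turn, 12 lost it each time and 3 kept it in part. A minimum FPKM of 1 for every library, added after the data had been seen, gave 7 higher and 10 lower.

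With replicate number as a block, 9 members were higher and 9 lower, 8 of the latter also lower without it. Replicate deviations correlated at 0.01 between the groups. This single value cannot show whether equally numbered samples share more than a number.

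Of 64 tested named unigenes, 3 uncalled ones changed sign somewhere. NDUFB10 (Ob_12244) had a log2 change of 0.10 on the TPM scale, COX6A (Ob_18395) -0.0080 to 0.0818 with a library left out (lowest without chilling replicate 2), and COX11 (Ob_32288) -0.0111 to 0.0451 (below 0 without control replicate 2, at -0.0056, and without chilling replicate 1).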
